A study of Zea mays with 54 samples.

Results

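The maize gene yellow stripe1 (ys1, gene model Zm00001d017429) was followed in maize (Zea mays) roots, in 9 genotypes that were each supplied with high or low phosphate (P). It is 1 of 46430 features in each of 2 count tables, chosen by its identifier, and the question asked was whether the transcript of this iron transporter is lowered when P is scarce. The groups were F160, F142, SF1, EP1, F2 and SM1 (first table) and P415, P024 and F7 (second table), each at high P and at low P, with 3 libraries in each of the 18 groups and 54 libraries in all. The labels give root as the tissue of every library and do not give the P concentrations, the iron supply, the plant age or whether a replicate was 1 plant or a pool. The p-values therefore measure only the spread between these libraries, which may be technical. The name ys1 for this identifier comes from the rule that chose the gene. The RefSeq gene table lists a gene called ys1, but 0 of the 44146 nuclear identifiers of the files occur in that table.

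Grasses take up iron by secreting phytosiderophores, small chelators of the mugineic acid family, into the soil and importing the ferric iron complex that forms. In maize YS1 is the membrane transporter that carries this complex into the root together with protons. Plants without a working copy show yellow stripes between the leaf veins, and the transcript is known to rise when iron is short. In Arabidopsis, which takes up iron by reduction instead, phosphate starvation is known to lower the transcript of the root iron transporter IRT1. Only transcripts were measured here, and neither iron uptake nor iron content was recorded in the files.

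Values below are in CPM, the gene's count per 1000000 counts of its library. Library totals ran from 15585904 to 28733284 counts. The library labelled F7 low P 2 held transcripts that P024 had and the remaining F7 libraries lacked. A set of 33 genes reached at least 5 CPM in all P024 libraries and stayed below 0.2 CPM in the remaining F7 libraries. In F7 low P 2, 33 of 33 exceeded 1 CPM. Their median ratio to the P024 mean was 0.913. For the 108 genes that mark F7 against P024 by the same limits, the median ratio to the remaining F7 libraries was 0.249. These genes were not looked up in the other genotypes, so the source of the transcripts was not tested. The P024 libraries numbered 3 also stood apart from the other 4 of that genotype. Of 24447 genes with a mean of at least 1 CPM, 18.9% were over 2-fold higher or over 2-fold lower in both of them than in any of the other 4. ys1 was high in all 3 of these libraries. Group levels, their orders and averages over genotypes that include them are also given without them. The level tests of the second table were repeated only without F7 low P 2. The median levels of the second table, and the replicate SD and shares of variation over all 54 libraries, include them. The tissue could not be checked against marker genes, because the files do not pair nuclear identifiers with names. For the same reason the lists of iron and phosphate genes could not be filled.

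ys1 was detected in every library, with 728 to 12259 counts. These counts put the counting error of a single library between 0.903% and 3.71% of its value; this covers counting error only. Per length, its deposited FPKM was higher than that of 86.2% to 99.4% of all features in the same library, with a median over libraries of 96.3%. It thus ranked between place 294, in F2 high P 2, and place 6412, in F7 low P 1. All features include those with too few counts to be tested. In F7, 24471 of the 46430 features were tested. Its level ran from 44.0 to 612 CPM over the 54 libraries, a 13.9-fold range.

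At low P ys1 fell in F160, F142 and SF1 and did not pass the test in the other 6 genotypes. In these 3 genotypes every low P library lay below every high P library. The means were 4.31-fold lower in F160, 2.74-fold lower in F142 and 2.62-fold lower in SF1. Low P was compared with high P in each genotype by edgeR's quasi-likelihood test across all genes, with Benjamini-Hochberg adjusted p under 0.05 as the threshold. The fold changes of this test are relative to TMM scaling, under which the median gene did not move by more than 0.0313 in log2 in any genotype. In bulk roots, fewer cells that express a gene and less transcript per cell cannot be told apart.

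F160 had the highest mean ys1 level of the first table at high P, where its libraries overlapped those of F2. At low P its level was in the lower part of the range. The high P libraries stood at 557, 549 and 465 CPM and the low P libraries at 92.3, 83.3 and 189 CPM. The lowest high P library was still 2.46-fold above the highest low P library, F160 low P 3. The log2 fold change was -2.01 ± 0.31 (approximate SE, n = 3 libraries per group), with an edgeR adjusted p of 0.00442. Few genes fell as far in this genotype: 1.28% of the 25059 tested genes had a lower log2 fold change, and 9.48% were called lower. By FPKM, ys1 held places 351 to 477 among all features in the high P libraries and places 1463 to 3705 at low P.

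In F142 ys1 stood at 262, 360 and 315 CPM at high P and at 130, 131 and 80.9 CPM at low P. The groups were separated by a 2-fold gap. The log2 fold change was -1.35 ± 0.21 with an edgeR adjusted p of 0.00113. Low P changed much of this transcriptome, with 24.5% of tested genes called lower, and 6.02% of genes had a lower log2 fold change than ys1.

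In SF1 the high P libraries were at 245, 483 and 298 CPM and the low P libraries at 115, 164 and 114 CPM. The gap between the groups was 1.50-fold, the narrowest of the 3. The log2 fold change was -1.26 ± 0.25 with an edgeR adjusted p of 0.00318, where 26.8% of tested genes were called lower and 8.50% had a lower log2 fold change. In 1 joint model the spread between replicates was shared over all 9 genotypes. The log2 fold changes there were -1.99 in F160, -1.33 in F142 and -1.26 in SF1. The fall still passed in F160 (edgeR adjusted p 0.0177), but not in F142 (0.0779) or SF1 (0.0929). That shared spread includes the libraries that stood apart. The 3 largest group SDs of log2(CPM + 0.5) were 1.55 in P024 low P, 1.38 in F7 low P and 1.17 in P024 high P. In the F142 and SF1 groups the SD was 0.23 to 0.50. The shared-spread result without the libraries that stood apart is not given here. For a single gene 3 libraries against 3 cannot go below p = 0.10 in an exact two-sided permutation test, and each of the 3 genotypes gave that value.

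**Figure D1:**
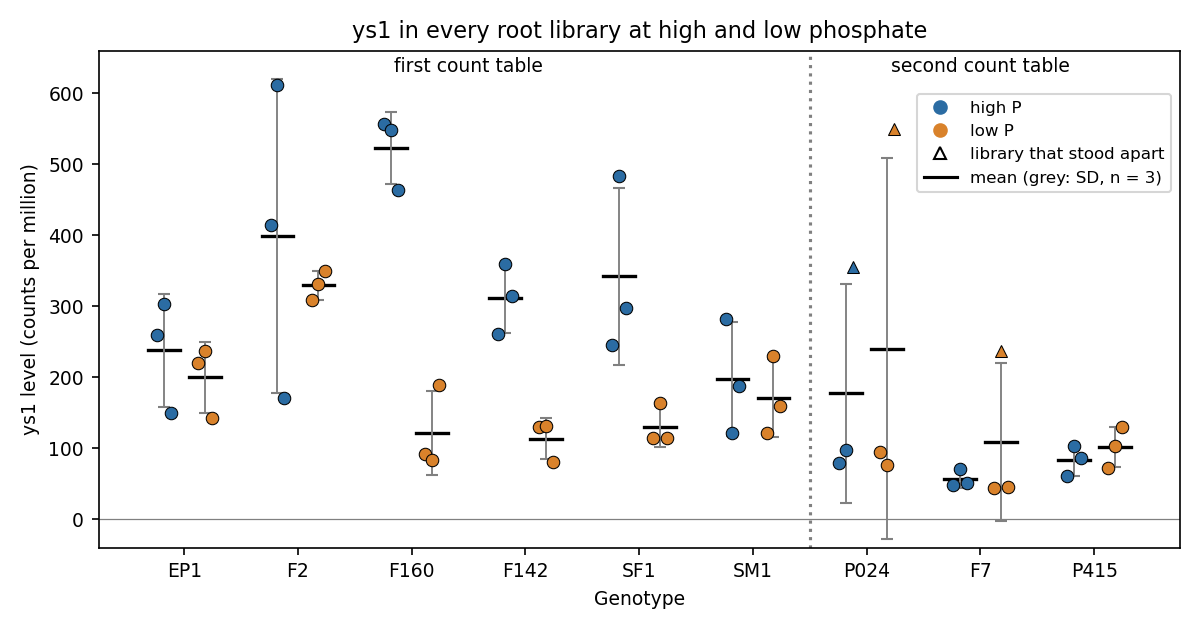
Level of ys1 in CPM (vertical axis) in each of the 54 libraries, by genotype (horizontal axis) and P supply (blue, high P; orange, low P); black lines are means, grey bars SD (n = 3), and triangles mark F7 low P 2 and the P024 libraries numbered 3. The orange points lie below all blue points in F160, F142 and SF1, and the ranges overlap in the other 6 genotypes.

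The other genotypes of the first table, EP1, F2 and SM1, had overlapping levels at both P supplies. EP1 stood at 260, 304 and 150 CPM at high P and at 220, 237 and 143 CPM at low P. The library numbered 3 was the lowest at each supply. The log2 fold change was -0.25 ± 0.27 with an edgeR adjusted p of 0.488, in a genotype where 42.8% of tested genes were called, 21.7% as lower.

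F2 kept a high ys1 level at low P, at 308, 332 and 349 CPM. Its high P libraries were spread over a 3.57-fold range, at 414, 612 and 171 CPM, and enclosed all the low P values. The log2 fold change was -0.23 ± 0.41 (edgeR adjusted p 0.709), and 30.3% of tested genes were called, 14.2% as lower. Without F2 high P 2, the library with the highest value of all 54, it was 0.24. Without F2 high P 3, the lowest of the high P libraries, it was -0.59 ± 0.19, which did not pass (edgeR adjusted p 0.0649).

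SM1 was at 282, 122 and 187 CPM at high P and at 122, 230 and 159 CPM at low P. Its log2 fold change was -0.15 ± 0.39 (edgeR adjusted p 0.786), with 33% of tested genes called, 15.7% as lower. The sign turned when SM1 high P 1 (0.30) or SM1 low P 1 (0.04) was left out.

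In the second table no genotype had a called difference in ys1, and few genes of any kind were called in P024 and P415. P415 was at 60.8, 104 and 85.8 CPM at high P and at 72.6, 103 and 130 CPM at low P. Its log2 fold change was 0.30 ± 0.29 with an edgeR adjusted p of 1.0, and 0.204% of tested genes were called in either direction. DESeq2 gave 323 calls in P415, and ys1 was not among them.

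P024 split by replicate number and not by P supply. The libraries numbered 1 and 2 were at 79.6 and 97.3 CPM at high P and at 95.2 and 76.9 CPM at low P. Those numbered 3 were at 355 and 550 CPM, the lower of them 3.65-fold above the highest of the other 4. The log2 fold change was 0.46 ± 0.87 (edgeR adjusted p 1.0), and 0.05 without both libraries numbered 3. Leaving out only P024 low P 3 gave -0.79 and only P024 high P 3 gave 1.30. EdgeR called 0% of the 23864 genes tested in P024; 269 of them had an unadjusted p below 0.05, and 1 was called by DESeq2.

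At high P, the F7 libraries overlapped those of P415. F7 had the lowest mean ys1 level of the second table there, at 48.1, 71.4 and 50.9 CPM. At low P it was at 44.0 and 45.7 CPM in libraries 1 and 3 and at 237 CPM in the library labelled F7 low P 2, which was 5.29-fold above the mean of the other two. With that library the log2 fold change was 0.92 ± 0.64 (edgeR adjusted p 0.354), and without it -0.32 ± 0.23 (0.317). Neither passed the test. With it 22.9% of tested genes were called, 12.1% as lower, and without it 18% were called lower.

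**Figure D2:**
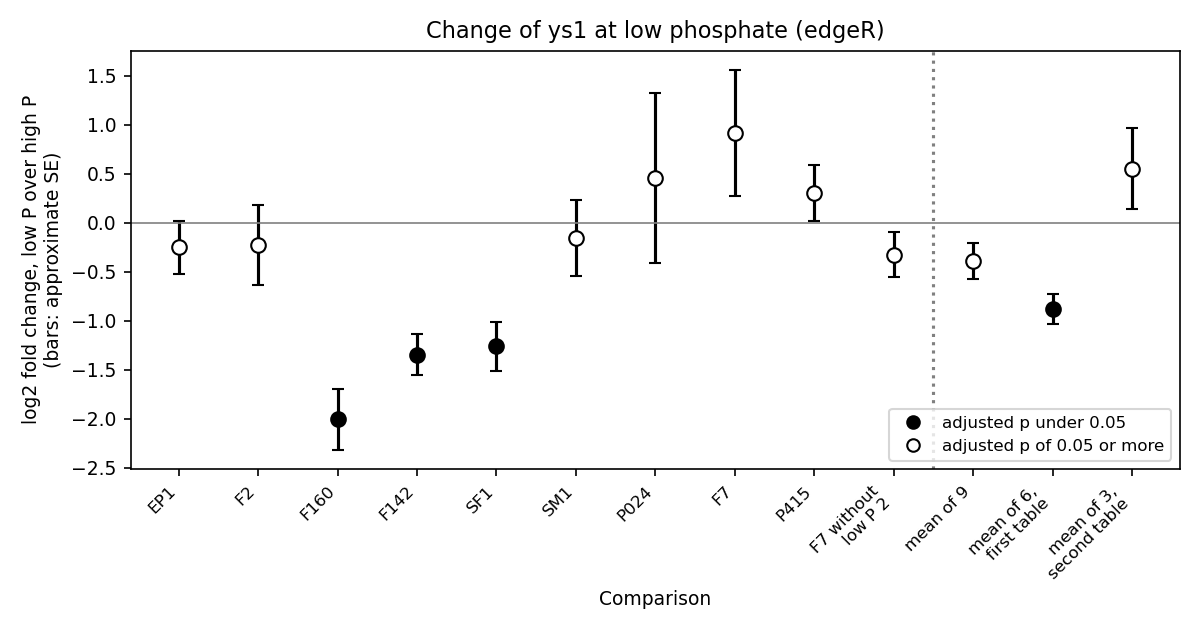
Log2 fold change of ys1, low P over high P (vertical axis, edgeR, bars are the approximate SE), within each genotype, in F7 without the library F7 low P 2, and averaged over genotypes. Filled points passed an adjusted p of 0.05: F160 at -2.01, F142 at -1.35, SF1 at -1.26 and the mean of the 6 genotypes of the first table at -0.88.

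Averaged over the 9 genotypes, the log2 fold change of ys1 was -0.39 ± 0.18 in the joint edgeR model, which did not pass the threshold (adjusted p 0.0848). In that comparison 38.7% of 29705 tested genes were called. The average was -0.52 when F7 low P 2 was left out, which passed (adjusted p 0.00933, with 39.1% of genes called). The first table alone gave -0.88 (adjusted p 1.89e-05), where 59.4% of genes were called, and the second alone gave 0.55 (adjusted p 0.571), where 4.33% were called. The second table gave 0.16 without F7 low P 2 (edgeR adjusted p 0.922) and 0.031 without that library and the P024 libraries numbered 3 (0.972). Whether the 2 tables differ in this response was not tested. A two-sided permutation test that shuffled P levels within genotypes used ys1 alone and gave a mean difference in log2(CPM + 0.5) of -0.51 (SD 0.93 over 9 genotypes, lower in 6 of 9), with p = 0.0253. Without F7 low P 2 it gave -0.60 with a permutation p of 0.00439, lower in 7 of 9 genotypes, and without the P024 libraries numbered 3 as well -0.62 with a permutation p of 0.00046, lower in 8 of 9. The same test gave -0.92 with a permutation p of 0.00025 in the first table, lower in 6 of 6 genotypes, and 0.31 with a permutation p of 0.479 in the second. Without the same 3 libraries the second table gave -0.026 (permutation p 0.865).

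The response of ys1 differed between genotypes. In the joint edgeR model, the interaction of genotype with P had an adjusted p of 0.0274, in a test that called 42.3% of all genes. It passed in the first table alone (adjusted p 0.0145, 58.2% of genes called), without F7 low P 2 (0.0344), and without that library, F7 high P 1 and the P024 libraries numbered 3 (0.00301). It did not pass in the second table alone (0.972, 2.77% of genes called), nor over all genotypes without replicate 1 (0.259) or replicate 2 (0.172) of every group. Against the mean of the other 8 genotypes, no single genotype passed. The largest differences were -1.80 ± 0.58 in F160 (edgeR adjusted p 0.149, with 0.899% of genes called) and 1.44 ± 0.58 in F7 (adjusted p 0.0529, with 32.8% called). The latter was 0.24 without F7 low P 2. The same comparison called 5.09% of genes in EP1, 4.86% in F2, 5.3% in F142, 6.39% in SF1, 7.04% in SM1, 4.88% in P024 and 2.39% in P415. Against the other 5 genotypes of the first table, F160 differed by -1.35 with an edgeR adjusted p of 0.0216. The share of all genes called by that comparison was not counted, so whether the call sets ys1 apart cannot be judged.

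In the 3 genotypes with a called fall, many other genes were called lower too, and fewer of them were uncalled in the other 6. Other combinations were not counted. Hardly any gene was called in P024 (0%) or P415 (0.204%), so being uncalled there sets few genes apart. Of 20802 genes tested in every genotype, 906 (4.36%) were called lower in F160, F142 and SF1, and 62 (0.298%) were called lower in these 3 and not called in the other 6. ys1 is 1 of the 62. This count describes where the threshold fell in each genotype. The interaction test asked only whether the response differed anywhere among the genotypes. Whether the 3 called genotypes differ as a group from the other 6 was not tested. Against the mean of all other genotypes, the response differed by -1.06 in F142 and by -0.98 in SF1. Neither passed (edgeR adjusted p 0.316 and 0.378).

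At high P the genotypes ranked by mean ys1 level as F160 (523 ± 51.1 CPM, SD, n = 3), F2 (399 ± 221), SF1 (342 ± 125), F142 (312 ± 49.4), EP1 (238 ± 79.3), SM1 (197 ± 80.4), P024 (177 ± 154), P415 (83.4 ± 21.6) and F7 (56.8 ± 12.7). Each neighbour in this order overlapped the next in its libraries. At low P the order was F2 (330 ± 20.5 CPM), P024 (241 ± 268), EP1 (200 ± 50.1), SM1 (171 ± 55.0), SF1 (131 ± 28.4), F160 (122 ± 58.7), F142 (114 ± 28.6), F7 (109 ± 111) and P415 (102 ± 28.6). Here too neighbours overlapped, but within the first table all F2 libraries lay above all EP1 libraries, the next in order. At low P the P024 and F7 places rest on single libraries. At high P all places were the same with and without the libraries that stood apart. Without the P024 libraries numbered 3, P024 had a mean of 88.5 ± 12.5 CPM (SD, n = 2) and the seventh place at high P. At low P its mean was then 86.0 ± 12.9 CPM (n = 2), the eighth place. Without F7 low P 2, F7 stood at 44.9 ± 1.18 CPM at low P (n = 2), the lowest place. In that order neighbours still overlapped except SM1 and P024 at high P, and F2 and EP1, and P024 and F7, at low P. F160 moved from the highest place at high P to the sixth at low P with these libraries and to the fifth without them, while F2 was the first or the second at both supplies either way.

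Genotype levels were tested only within a count table, because a level difference between tables cannot be told apart from the table. In the first table ys1 differed over the 6 genotypes at high P (edgeR adjusted p 0.0230) and at low P (0.00305), as did 89.2% and 80.7% of all genes. The high P difference did not pass without replicate 1 (0.0729) or replicate 2 (0.0877) of every group, nor the low P difference without replicate 1 (0.0670). In the second table neither passed, with edgeR adjusted p of 0.222 and 0.342 (0.131 and 0.0541 without F7 low P 2), where 28.6% and 18.8% of genes were called. The median library of the first table had 301 CPM with high P and 151 CPM with low P, and that of the second 79.6 and 95.2 CPM.

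ys1 varied more between replicates than most genes of its level. Its pooled replicate SD was 0.49 on the log2(CPM + 0.5) scale in the first table. Of 1644 genes with a mean within 2-fold of that of ys1, 93.4% had a lower value, and their median was 0.18. Over all 54 libraries the SD was 0.71 against a median of 0.31, and 88.3% were lower. In the first table, 33.4% of the variation of ys1 lay between the P supplies averaged over genotypes, 25.4% in the genotype by P differences, 15.7% between genotypes and 25.4% between replicates. Over all 54 libraries the shares were 6.11%, 18.3%, 43.9% and 31.6%, in the same order. There the genotype share includes any difference between the count tables, and the replicate share includes the libraries that stood apart.

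The genes whose levels tracked ys1 most closely over the 54 libraries were Zm00001d041111 (Pearson r 0.877 on log2(CPM + 0.5)) and Zm00001d031621 (0.875). After each genotype's own mean was subtracted, the closest were Zm00001d026573 (0.931) and Zm00001d047658 (0.873). The median over the other 29704 genes was 0.159 and 0.107 by the same measures, and 99% of genes were below 0.671 and 0.613. These libraries share genotypes, P supply and tables, so the values are descriptions. The files do not name these genes. Without F7 low P 2 and the P024 libraries numbered 3 the values were 0.881, 0.880, 0.898 and 0.843 in the order given.

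These genes were picked for their correlation with ys1 in the same libraries, so their likeness to ys1 below follows in part from that choice. Zm00001d026573 was called lower in the same 3 genotypes as ys1 and in no other. It went from 589 ± 79.3 to 171 ± 35.8 CPM in F160 (SD, n = 3), from 345 ± 53.7 to 143 ± 21.8 CPM in F142 and from 248 ± 68.2 to 156 ± 14.1 CPM in SF1 (edgeR adjusted p 0.000821, 0.000568 and 0.0268). It was also high in the libraries that stood apart, at 968 and 965 CPM in the P024 libraries numbered 3, and at 311 CPM in F7 low P 2, where F7 low P 1 and 3 had 82.2 and 92.5 CPM. Between replicates of the same genotype and P supply its r with ys1 was 0.944 over 54 libraries, and 0.849 over the 51 without those 3. That r was not computed for all genes. Zm00001d041111 and Zm00001d031621 were called lower in F160 and F142 but not in SF1. Zm00001d047658 was also called lower in F160 and F142 alone, and was filtered out as too low in EP1 and in all 3 genotypes of the second table.

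**Figure D3:**
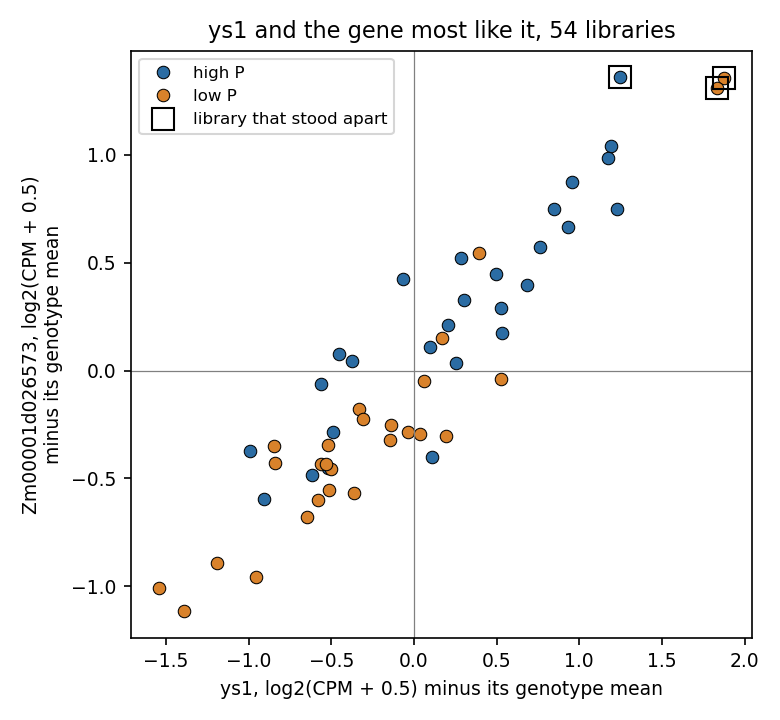
Deviation of each of the 54 libraries from its genotype mean, on the log2(CPM + 0.5) scale, for ys1 (horizontal axis) and Zm00001d026573 (vertical axis); blue is high P, orange low P, and squares mark F7 low P 2 and the P024 libraries numbered 3. The points follow a rising line with r = 0.931, and the 3 squared libraries lie at its upper end.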

How the data were processed

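Read counts per gene were deposited by the authors in 2 tables, and FPKM values, scaled by gene length and library total, in 2 more, per the file headers. The submitters' processing notes name fastp, HISAT2 and HTSeq and the build B73 RefGen_v4; versions and strand setting were not given there, so reads shared with near copies or antisense genes cannot be judged. The gene and the tests were chosen with earlier results of these data known.

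Counts of all features were tested with edgeR 4.0.16 (R 4.3.3) after TMM scaling and filterByExpr, within each genotype and in a joint model of 54 libraries, with Benjamini-Hochberg adjustment over all tested genes and a threshold of 0.05. The scripts were checked on simulated counts. Approximate SEs were derived from the fold change and its F statistic, as |log2 fold change| divided by sqrt(F). DESeq2 1.42.0 and limma 3.58.1 (voom), other scalings and no filter were alternatives. Permutation tests of ys1 alone drew 100000 shuffles of log2(CPM + 0.5). FPKM entered no test and served to rank genes per length. Other genes were named by a rule: the 2 with the highest correlation with ys1 by each of 2 measures.

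No pair of replicates agreed within sampling noise (lowest chi-square 7.19 per degree of freedom). Same-numbered high and low P libraries deviated together, with correlations over 0.1 in all 3 pairs, in F160 (0.101 to 0.264), P024 (0.501 to 0.830) and P415 (0.162 to 0.372) only, a pairing read from the data and not stated in the labels. Every library correlated best with its own number in F160 and F2 only, and not in P024 or P415.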

Additional observations from a re-analysis of the deposited data

Results flagged for a closer look

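The response of ys1 to low P differed over the 9 genotypes by the interaction test of the joint edgeR model, with an adjusted p of 0.0274. The fall was 4.31-fold in F160, 2.74-fold in F142 and 2.62-fold in SF1, and the means of EP1, F2 and SM1 were 1.19-fold, 1.21-fold and 1.16-fold lower with overlapping libraries. The means of P024, F7 and P415 were 1.36-fold, 1.92-fold and 1.22-fold higher at low P, also with overlapping libraries, and those of P024 and F7 rest on the libraries that stood apart. Groups of 3 libraries were not tested for single outlying values.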

How the results depend on the processing

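The falls in F160, F142 and SF1 passed under every other alternative run within the genotype, and failed only where the text says so: with the shared spread F142 gave -1.33 and SF1 -1.26. Leaving out single libraries gave -2.48 to -1.80 in F160, -1.49 to -1.15 in F142 and -1.49 to -0.95 in SF1. The same gave -0.49 to -0.0040 in EP1, -0.59 to 0.24 in F2, -0.44 to 0.30 in SM1, -0.79 to 1.30 in P024, -0.32 to 1.32 in F7 and 0.12 to 0.52 in P415. Without F7 low P 2 and F7 high P 1 the F7 value was -0.45.

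The average over 9 genotypes, not called as reported, was called with DESeq2 (-0.42) and limma-voom (-0.44), without F7 low P 2 (-0.52), without it and F7 high P 1 (-0.54), also without the P024 libraries numbered 3 (-0.58), without genotype P024 (-0.51) or F7 (-0.55) and in the first table alone (-0.88); the second table alone gave 0.55, 0.16 without F7 low P 2 and 0.031 also without the P024 libraries numbered 3. Leaving out replicate 1, 2 or 3 of all groups gave -0.52 to -0.29, the call being made without replicate 3. The permutation test gave 0.31, 0.049 and -0.026 in the second table with the same libraries, in this order. The interaction had an adjusted p of 0.0248 to 0.259 without a replicate and 0.972, 0.915 and 0.554 in the second table, in the same order. The correlation of Zm00001d026573 with ys1 was 0.898 without F7 low P 2 and the P024 libraries numbered 3. Within their own table F160 differed from the others by -1.35, P024 by -0.12 and P415 by -0.37. Against the mean of the other 8 genotypes, P024 differed by 0.97 and P415 by 0.78, so both signs turned. Neither P024 nor P415 passed in either comparison. Adjusted p for genotype levels without a replicate ran from 0.0363 to 0.0877 (first table, high P), 0.00895 to 0.0670 (first table, low P), 0.160 to 0.659 and 0.0718 to 0.753 (second table). Of 222 values under alternatives, 185 counted as unchanged. For tests this means the same side of the threshold, and the same direction where the test has one. The 222 also include correlations, which have no threshold. The cause of these changes was not tested. Some of those fits also had fewer libraries.

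By correlations over 0.1, the numbers paired the libraries only in F160, P024 and P415, where the replicate block changed no call. Over all genotypes, most of which are not paired by this limit, the block moved the average to -0.44. This passed, with an edgeR adjusted p of 0.00785. The interaction moved to an edgeR adjusted p of 0.00351. The block changed no other call. Total-count scaling shifted the median gene by 0.111 downward at most (log2, SF1), against 0.0313 under TMM, and changed no call within a genotype. Depth was not limiting, with at least 728 counts of ys1 per library. Leaving out the P024 libraries numbered 3, the genotype levels of the second table without F7 low P 2, TMM-scaled CPM in the permutation test, that test and the second table without the libraries that stood apart, and the most alike genes without these libraries, were chosen after the data were seen.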
